A study of Homo sapiens with 3 samples.

Results

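The granins and the enzymes that process prohormones are described here in H82R cells through 10 genes, chosen by gene symbol from 27574 genes in the deposited table: the granins CHGA, CHGB, SCG2 and VGF, the granule proteins SCG3 and SCG5, the convertases PCSK1 and PCSK2, the carboxypeptidase CPE and the amidating enzyme PAM. The measurements are RNA sequencing read counts of 3 libraries, named replicate 1, 2 and 3. The cells derive from H82, an ATCC line established from human small cell lung cancer, and every library is labelled as treated with etoposide plus cisplatin, a topoisomerase II poison combined with a platinum drug that crosslinks DNA. All 3 libraries belong to 1 group, with neither an untreated nor a parental sample beside it, so the counts give levels in these cells and not an effect of the drugs. Whether the libraries stem from separate cultures is not stated, so the p-values reflect the spread between these libraries alone, which may be technical. Totals were 25013265, 42610181 and 23868201 counts in replicates 1, 2 and 3, and the 10 genes together took 0.0526%, 0.0540% and 0.0566% of them.

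Endocrine and neuroendocrine cells store peptide hormones in dense-core granules. Granins are acidic proteins that aggregate with calcium in the trans-Golgi network and form the bulk of the granule matrix, and several are themselves precursors of bioactive peptides. Inside the granule, a prohormone is cut after pairs of basic residues by the subtilisin-like convertases encoded by PCSK1 and PCSK2, the exposed basic residues are trimmed by carboxypeptidase E, and a C-terminal glycine is turned into an amide by the enzyme encoded by PAM. Chromogranin A is the granin most used as a tissue and serum marker of neuroendocrine tumours, small cell lung cancer included.

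All 10 genes reached 10 counts in each of the 3 libraries, which is the definition of a detected gene used here and was met by 53.0% of all genes. CPM is the count scaled by the effective size of the library, and the median detected gene stood at 25.2 CPM. Each gene was compared with the median detected gene of its library by limma's one-sample test, adjusted over all detected genes, and 5 members lay above it and 5 below. Of all detected genes, 45.9% were called above and 46.1% below, so nearly every detected gene was called and the split of the members was close to that background. The median of the members lay 0.06 above the median detected gene on the log2 scale. CPE, SCG3, CHGB, CHGA and PAM were the 5 above, and PCSK2, PCSK1, VGF, SCG2 and SCG5 the 5 below.

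**Figure D1:**
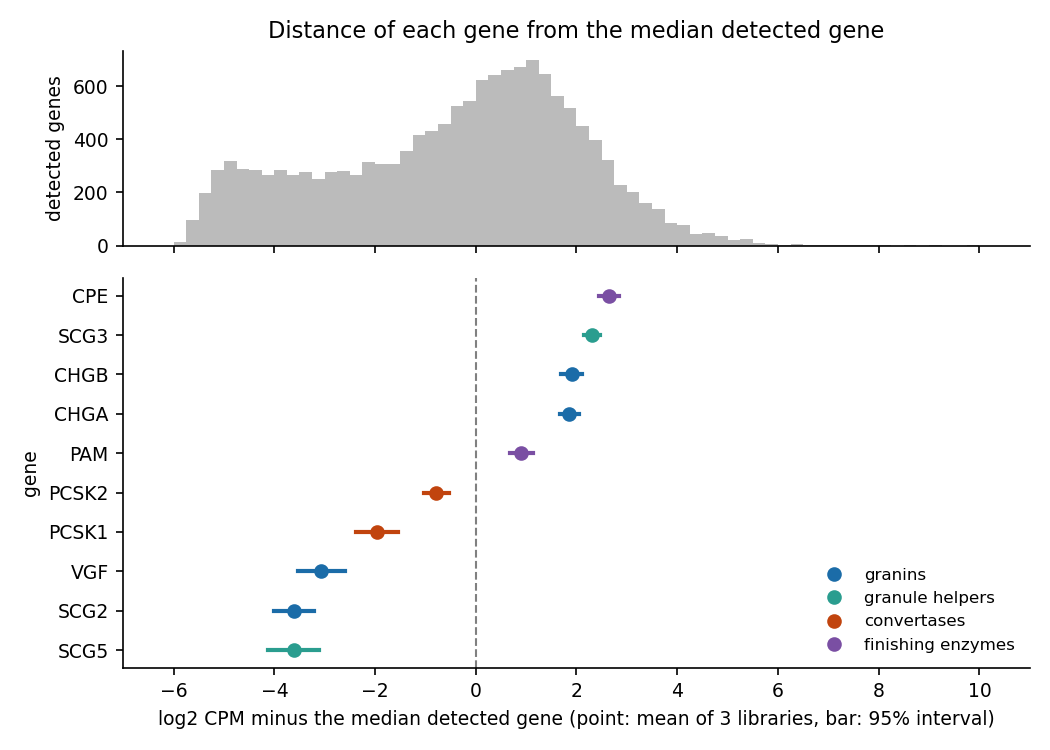
The upper panel counts all detected genes by their log2 CPM minus that of the median detected gene, and the lower panel gives the same distance for the 10 genes (point, mean of 3 libraries; bar, 95% interval of limma's moderated test; colour, role). No interval of the 10 genes crosses 0, and they run from 2.64 for CPE to -3.62 for SCG5.

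The granins, with the granin-like VGF counted among them, split into an abundant and a scarce pair. CHGA, which encodes chromogranin A, had 89.5, 81.9 and 103 CPM in replicates 1, 2 and 3 (2224, 3486 and 2464 counts). CHGB, which encodes chromogranin B, had 95.2, 80.5 and 109 CPM. Both were lowest in replicate 2 and highest in replicate 3. They lay above the median detected gene by 1.86 ± 0.08 and 1.90 ± 0.09 (limma's moderated SE, n = 3) on the log2 scale, with adjusted p = 1.28e-07 and 1.88e-07 in limma's test. On GRCh38, CHGA lies on chromosome 14 from 92923080 to 92935293 and CHGB on chromosome 20 from 5911430 to 5925361, both on the forward strand.

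SCG2, the precursor of the peptide secretoneurin, had 55, 89 and 42 counts, which is 2.21, 2.09 and 1.75 CPM. VGF, a granin-like protein induced by nerve growth factor and the source of several neuropeptides, had 52, 132 and 93 counts, or 2.09, 3.10 and 3.87 CPM. In every library both granins were far under the chromogranins. Their distance from the median detected gene was -3.60 ± 0.17 (SCG2) and -3.07 ± 0.20 (VGF) log2 units (limma, adjusted p = 1.77e-07 and 1.13e-06). The SCG2 to CHGA count ratio was 0.0247, 0.0255 and 0.0170 in replicates 1, 2 and 3, with exact 95% binomial intervals of 0.0186 to 0.0323, 0.0204 to 0.0315 and 0.0123 to 0.0231. SCG2 lies on chromosome 2 from 223596940 to 223602503 and VGF on chromosome 7 from 101162509 to 101165593, both on the reverse strand.

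The granule helpers split in the same way. SCG3, secretogranin III, which binds chromogranin A and tethers aggregated cargo to the cholesterol-rich granule membrane, had 121, 120 and 134 CPM in the 3 libraries (2998, 5102 and 3223 counts). It had the most counts of the granin and secretogranin genes in each library and lay above the median detected gene by 2.31 ± 0.07 log2 units (adjusted p = 1.78e-08, limma). SCG5, which encodes the chaperone that keeps the PCSK2 proenzyme from misfolding and holds it inactive until it reaches the granule, had 48, 121 and 34 counts, or 1.93, 2.84 and 1.41 CPM. SCG5 had the lowest fitted log2 CPM of the 10 genes, at -3.62 ± 0.22 (adjusted p = 6.87e-07). SCG3 lies on chromosome 15 from 51681353 to 51721031 and SCG5 on the same chromosome from 32641676 to 32697098. In the reference annotation 11 of the 2196 exon bases of SCG5 overlap a gene on the other strand, and the other 9 genes share no exon base with any annotated gene.

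Within the 6 granin and secretogranin genes, counts came almost wholly from 3 of them. CHGA, CHGB and SCG3 together held 98.0%, 97.2% and 98.0% of these counts in replicates 1, 2 and 3. SCG3 alone held 38.7% (95% Wilson interval 37.6 to 39.8), 41.3% (40.4 to 42.2) and 38.1% (37.0 to 39.1). The shares of SCG2 were 0.710%, 0.720% and 0.496%, those of VGF 0.671%, 1.07% and 1.10%, and those of SCG5 0.620%, 0.979% and 0.402%. Scaled by exon length, CHGA, CHGB and SCG3 still held 97.2%, 96.2% and 97.3%. The binomial and Wilson intervals in the text cover counting error only and leave out the spread between libraries. Reads that carry no molecular identifier can stem from the same molecule, and the intervals are then too narrow even for counting error.

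Of the granule convertases, PCSK2 was the higher in every library. PCSK2, the convertase that carries processing through to small peptides such as glucagon, had 14.2, 15.8 and 13.7 CPM (352, 674 and 330 counts). PCSK1, which makes the first cuts in precursors such as proinsulin and proopiomelanocortin, had 8.09, 4.53 and 7.20 CPM (201, 193 and 173 counts) and was lowest in the deepest library, replicate 2. Both lay below the median detected gene, PCSK2 at -0.78 ± 0.11 and PCSK1 at -1.96 ± 0.18 log2 units (limma, adjusted p = 1.40e-04 and 9.90e-06). PCSK1 counts were 0.571, 0.286 and 0.524 times those of PCSK2, and per kb of exon 0.762, 0.382 and 0.699 times. PCSK2 lies on chromosome 20 from 17226107 to 17484578 on the forward strand and PCSK1 on chromosome 5 from 96390415 to 96434143 on the reverse strand.

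The binding partners of both convertases were scarcer than the convertases. SCG5 counts were 0.136, 0.180 and 0.103 times those of PCSK2, and per kb of exon 0.440, 0.579 and 0.332 times. PCSK1N, which encodes proSAAS, an inhibitor of the PCSK1 convertase, had 2, 0 and 2 counts and was not detected. Summed over the libraries, 567 counts of PCSK1 stood against 4 of PCSK1N, a ratio of 142 (95% exact binomial interval 55.1 to 522). The annotated exons of PCSK1N are shorter, and per kb of exon the ratio was 36.4 (14.1 to 134). A count of 0 allowed up to 0.0705 CPM in replicate 2 (3 counts).

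The finishing enzymes were both above the median detected gene on CPM. CPE had 144, 180 and 150 CPM in replicates 1, 2 and 3 (3573, 7659 and 3605 counts), the highest of the 10 genes in every library. It lay 2.64 ± 0.08 log2 units above the median detected gene (limma, adjusted p = 2.11e-08) and at percentile 91.6 of detected genes by CPM. PAM, which encodes a copper- and ascorbate-dependent enzyme, had 52.2, 50.1 and 39.4 CPM and was lowest in replicate 3. PAM lay 0.90 ± 0.10 log2 units above the median detected gene on CPM (adjusted p = 3.01e-05, limma). Its annotated exons are the longest of the 10 genes at 8846 bases, and per kb of exon it was not distinguished from the median detected gene, at -0.06 log2 units (adjusted p = 0.587). CPE lies on chromosome 4 from 165361194 to 165498320 and PAM on chromosome 5 from 102753981 to 103031105, both on the forward strand.

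Levels of different genes can be compared only per length, and on CPM per kb of exon the members ran in a steady order from CPE to PCSK2 with a partly overlapping group under it. The means were 53.4 ± 6.53 for CPE, 37.7 ± 2.42 for SCG3, 29.4 ± 3.36 for CHGA, 20.9 ± 3.09 for CHGB, 5.34 ± 0.77 for PAM and 2.06 ± 0.16 for PCSK2 (CPM per kb, SD, n = 3). Each of these stood above the next in all 3 libraries, with ranges that did not overlap. The widest gap between neighbours was 3.91-fold, between CHGB and PAM, and the median detected gene at 5.58 CPM per kb lay within that gap. PCSK1 (1.24 ± 0.35), VGF (1.12 ± 0.33), SCG5 (0.939 ± 0.329) and SCG2 (0.742 ± 0.089) followed, and the range of each overlapped that of the next. Among these 4 genes the ranges of PCSK1 and SCG2 did not overlap, and SCG5 was above SCG2 in all 3 libraries although their ranges overlapped, whereas the order of PCSK1, VGF and SCG5 differed between libraries. From the highest to the lowest of the 10 genes the fold was 62.8, 79.1 and 78.9 in replicates 1, 2 and 3, with VGF lowest in replicate 1 and SCG2 in replicates 2 and 3. With the longest protein-coding transcript as length, 5 of the 10 genes kept their place: CHGA (44.2 CPM per kb) then stood above SCG3 (37.7), and SCG5 (1.67) above PCSK1 (1.299) and VGF (1.17).

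**Figure D2:**
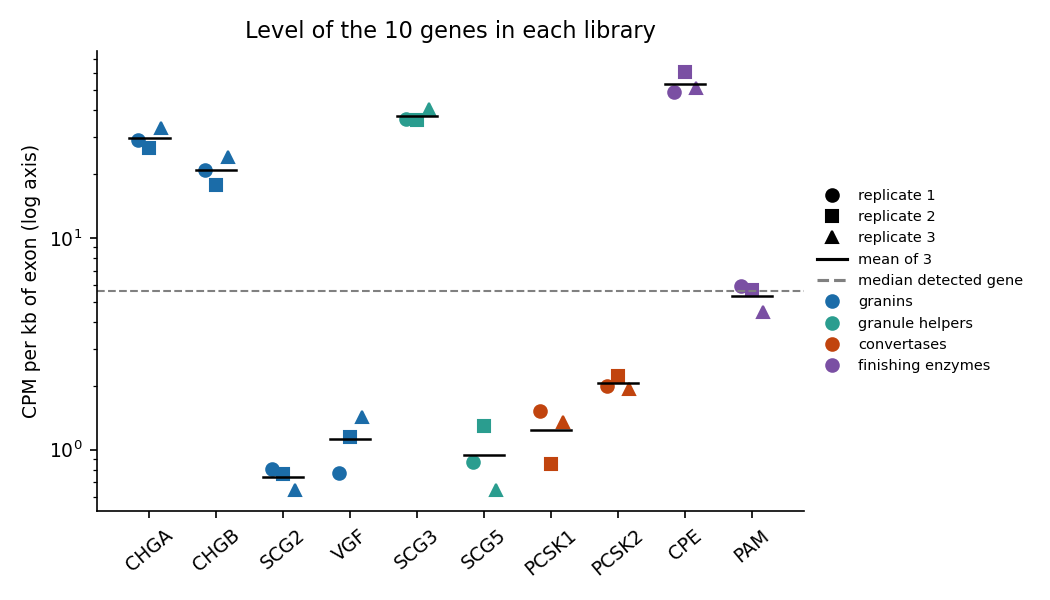
CPM per kb of exon (log axis) of the 10 genes in each library, grouped and coloured by role, with symbols for the replicates, a bar at the mean of the 3 libraries and a dashed line at the median detected gene (5.58 CPM per kb). CPE, SCG3, CHGA and CHGB lie above the line in every library, PAM lies around it, and the other 5 lie below it.

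Within each library, ratios of fixed pairs of genes remove the effect of library size. CHGA counts were 0.940, 1.02 and 0.944 times those of CHGB, and per kb of exon 1.37, 1.49 and 1.38 times. SCG3 exceeded CHGA by 1.35, 1.46 and 1.31 times in counts. CPE exceeded PCSK1 by 17.8, 39.7 and 20.8 times in counts, and per kb of exon by 31.9, 71.2 and 37.4 times. PAM counts were 0.363, 0.279 and 0.263 times those of CPE, and per kb of exon 0.121, 0.0932 and 0.0879 times. CPD, a carboxypeptidase of the trans-Golgi network that acts outside granules, had more counts than CPE, with CPE to CPD ratios of 0.490, 0.666 and 0.591. CPD has longer exons, and per kb of exon CPE was 2.08, 2.82 and 2.50 times CPD.

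PCSK1 counts were 0.204, 0.104 and 0.217 times those of FURIN, the convertase that works in the constitutive secretory pathway of most cells. The SCG2 to VGF ratio was 1.06, 0.674 and 0.452 (95% exact binomial intervals 0.711 to 1.58, 0.509 to 0.889 and 0.306 to 0.657). The count ratios, not scaled by exon length, were tested. Of the 10 pairs with counts in every library, 8 had the same direction in all 3 libraries. Their exact sign-flip p was 0.25, the smallest that 3 libraries allow, and adjusted p = 0.313. The count ratios of CHGA to CHGB and SCG2 to VGF kept the direction in 2 libraries only (exact sign-flip p = 0.50, adjusted p = 0.50). Per kb of exon CHGA was above CHGB in all 3 libraries.

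**Figure D3:**
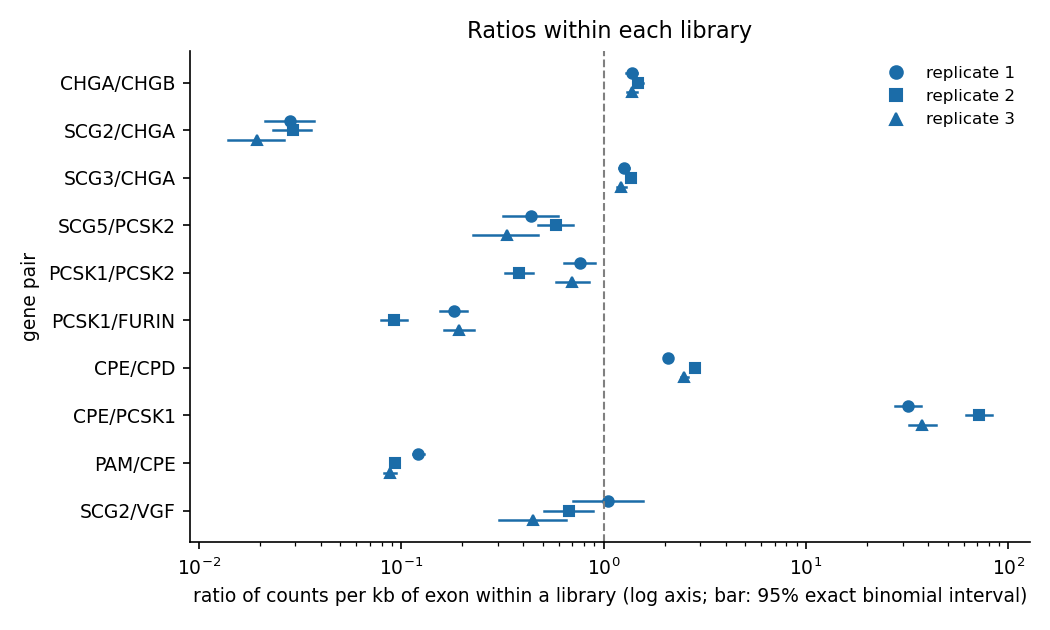
Ratios of counts per kb of exon (log axis) for 10 gene pairs in each of the 3 libraries, with 95% exact binomial intervals and a dashed line at equality. CPE lies above PCSK1 and CPD, CHGA above CHGB and SCG3 above CHGA in every library, and PCSK1 lies below PCSK2 and FURIN in every library.

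Differences between the libraries were larger than counting error for 8 of the 10 genes (chi-square test of homogeneity, adjusted over all detected genes). This was so for 68.8% of all detected genes. SCG2 (adjusted p = 0.539) and PCSK2 (adjusted p = 0.0841) were not called. The coefficient of variation over the libraries was 35.0% for SCG5, 29.5% for VGF and 28.0% for PCSK1. Its median over all detected genes, not matched for level, was 11.8%. At the other end stood SCG3 (6.42%) and PCSK2 (7.62%). Without replicate 2 the number called was 5, and SCG5 (adjusted p = 0.275), PCSK1 (0.392) and CPE (0.147) were no longer called. VGF lost its call without replicate 1 (0.153), and SCG3 (0.879) and PAM (0.373) without replicate 3.

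**Figure D4:**
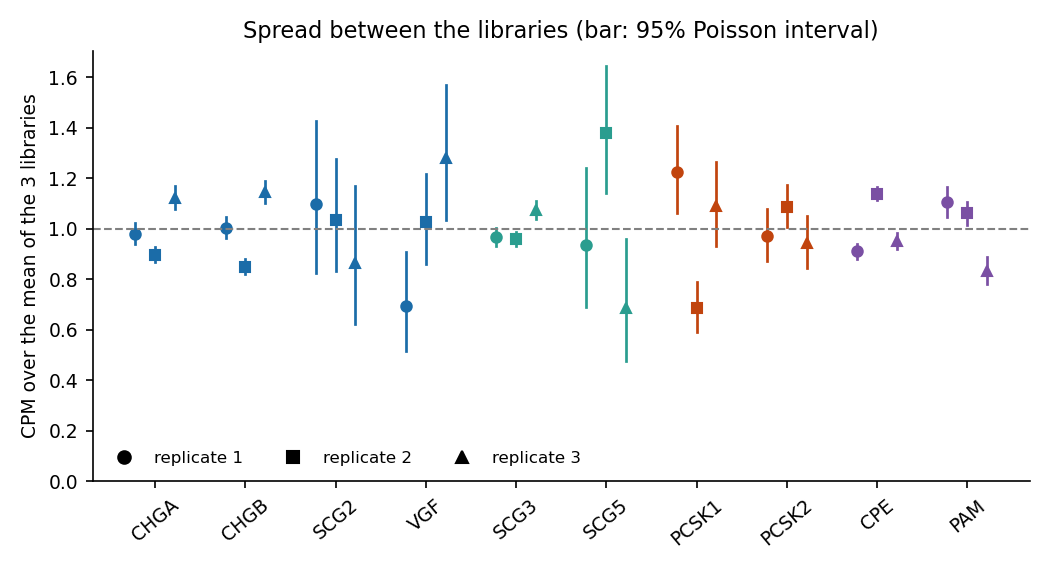
CPM of each gene in each library divided by the gene's mean over the 3 libraries, with exact 95% Poisson intervals of the count; symbols stand for the replicates and colours for the roles. In replicate 2 PCSK1 is low and SCG5 and CPE are high, and in replicate 1 VGF is low.

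The cAMP response element, the palindrome TGACGTCA bound by CREB and related factors, is a textbook feature of several granin and convertase promoters, and promoters were searched for it because its occurrence can be set beside levels that differ widely among the members. RefSeq windows from 250 bases before to 50 bases after the start (GRCh38.p14) were at hand for 8 of the 10 genes, in 12 windows; CHGB and SCG2 were the others. The palindrome was found in 3 of the 12 windows, those of CHGA, VGF and the upstream start of PCSK1, and in 1.85% of all 35116 windows. Among windows of detected genes the share was 2.63%. Its first base lies 54 bases before the start in CHGA, 79 in VGF and 77 in PCSK1. The 150 bases before the start of these 3 genes and of CPE, the most abundant member, whose window lacks the palindrome, are given 5′ to 3′ on the strand of the gene. Capitals mark TGACG or its reverse complement, whose overlap makes the palindrome.
CHGA: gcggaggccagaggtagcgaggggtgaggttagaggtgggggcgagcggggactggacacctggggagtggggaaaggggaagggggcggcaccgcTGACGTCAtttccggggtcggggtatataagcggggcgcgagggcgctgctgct
VGF: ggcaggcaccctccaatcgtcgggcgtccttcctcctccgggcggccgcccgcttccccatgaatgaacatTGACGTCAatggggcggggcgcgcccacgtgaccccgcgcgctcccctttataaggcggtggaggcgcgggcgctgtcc
PCSK1: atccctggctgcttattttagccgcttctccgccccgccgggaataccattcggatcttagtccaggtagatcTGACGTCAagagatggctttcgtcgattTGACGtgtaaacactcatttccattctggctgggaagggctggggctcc
CPE: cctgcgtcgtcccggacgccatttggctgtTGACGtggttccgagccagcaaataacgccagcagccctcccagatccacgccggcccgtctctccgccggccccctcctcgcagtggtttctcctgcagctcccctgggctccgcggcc

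These stretches are chr14:92923000-92923149 on the forward strand for CHGA, chr7:101165570-101165719 on the reverse strand for VGF, chr5:96433249-96433398 on the reverse strand for PCSK1 and chr4:165378858-165379007 on the forward strand for CPE. The starts are those of RefSeq and lie inside the GENCODE bounds given above, by 70 bases in CHGA, 24 in VGF, 895 in PCSK1 and 17814 in CPE. The 3 genes with the palindrome stood at 29.4 (CHGA), 1.12 (VGF) and 1.24 (PCSK1) CPM per kb of exon. The 5 genes with a window and no palindrome stood at 53.4 (CPE), 37.7 (SCG3), 5.34 (PAM), 2.06 (PCSK2) and 0.939 (SCG5), so both sets spanned high and low levels. The shorter TGACG, searched on both strands, was found in 9 of the 12 windows and in 24.6% of all windows (30.8% among detected genes). Counted by gene, at least 1 window held it in each of the 8 genes. The same held for 7761 of all 27305 genes with a window, and for 4144 of 10471 detected genes. TATAAA on either strand was found in 2 of the 12 windows, of VGF and of the downstream start of PCSK1, against 11.5% of all windows (6.62% among detected genes). The E-box CAGATG was found in none of the 12, against 14.7% of all windows (10.5% among detected genes). A match describes these letters in this window and is not evidence of binding.

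Some enzymes outside the granule pathway stood well above the granule convertases, also per length: MBTPS1, FURIN and CPD had 16.6, 8.20 and 21.7 CPM per kb of exon, against 2.06 for PCSK2 and 1.24 for PCSK1. Of 7 other proprotein convertases, all were detected, 3 above and 4 below the median detected gene in limma's test. MBTPS1, the site-1 protease that activates membrane-bound transcription factors, stood at 170 ± 23.1 CPM, PCSK7 at 62.3 ± 9.38 CPM and FURIN at 38.8 ± 5.29 CPM (SD, n = 3). Per kb of exon PCSK7, with 22303 annotated exon bases, was at 2.79 and lay below the median detected gene. Its longest protein-coding transcript has 4649 bases, and on that length PCSK7 stood at 13.4 CPM per kb, a value that was not tested. In the reference annotation 19.7% of the exon bases of PCSK7 overlap genes on the other strand, and whether the counting used strand is not stated. PCSK2 and PCSK1 together with these 7 genes made up the convertase counts, of which PCSK2 held 5.10%, 4.65% and 4.64% and PCSK1 2.91%, 1.33% and 2.43% in replicates 1, 2 and 3; scaled by exon length the shares were 6.51%, 6.10% and 6.29% for PCSK2 and 4.96%, 2.33% and 4.40% for PCSK1. Among 7 other genes of the metallocarboxypeptidase family, whether or not their products are active enzymes, 2 lay above and 2 below the median detected gene and 3 were not detected. CPD reached 273 ± 19.8 CPM, AEBP1 76.3 ± 3.81 CPM and CPXM1 4.16 ± 0.189 CPM, and CPM, a carboxypeptidase anchored at the cell surface, was the lowest detected at 1.87 ± 0.518 CPM.

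Of 6 further peptide-trimming and modifying enzymes, 4 lay above and 2 below the median detected gene. The aminopeptidase gene RNPEP (111 ± 4.86 CPM), whose exons overlap an antisense gene over 18.3% of their bases, the prolyl oligopeptidase gene PREP (82.3 ± 8.84 CPM) and PRCP (67.4 ± 4.27 CPM) had the highest CPM, and QPCT, the secreted glutaminyl cyclase, lowest at 9.48 ± 0.768 CPM. Per kb of exon PRCP, at 5.27, was not distinguished from the median detected gene. The cathepsin L gene CTSL, at 25.7 and chosen after its value was seen, stood between RNPEP (31.8) and PREP (21.9). With the longest protein-coding transcript as length PRCP stood at 21.8, a value that was not tested. On that length CTSL (27.9) was under both RNPEP (45.6) and PREP (28.3). For the cofactors of PAM, 3 of 5 supply genes lay above and 1 below the median detected gene. The ascorbate transporter gene SLC23A2 stood at 147 ± 10.9 CPM, CYB561, which passes electrons into the granule for ascorbate regeneration, at 106 ± 2.01 CPM, and the copper importer gene SLC31A1 at 59.4 ± 1.59 CPM. SLC23A1, the epithelial ascorbate transporter gene, was lowest at 1.66 ± 0.321 CPM.

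Genes of the granule membrane, cargo loading and release were mixed, with 5 of 16 above the median detected gene, 8 below, 1 not distinguished and 2 not detected. On CPM, CYB561 was followed by the granule priming factor gene CADPS (105 ± 4.70 CPM) and the calcium sensor gene SYT7 (87.8 ± 2.999 CPM). CADPS has long exons, and per kb of exon it stood at 7.14, under SYT7 at 14.8. With the longest protein-coding transcript as length the order reversed, at 19.1 for CADPS and 18.1 for SYT7. SLC18A2, the vesicular monoamine transporter gene, was the lowest detected at 0.473 ± 0.0616 CPM, and 56.1% of its exon bases overlap genes on the other strand. The 34 prohormone and neuropeptide precursor genes were low: none lay above the median detected gene, 13 lay below and 21 were not detected, 6 of them with no count in any library. CALCB (10.1 ± 3.43 CPM), which encodes a form of calcitonin gene-related peptide and is a close paralog of CALCA, had the highest CPM. NMB, which encodes neuromedin B (8.60 ± 0.390 CPM), and UCN, which encodes urocortin (4.45 ± 1.39 CPM), followed. PTHLH was the lowest detected at 0.513 ± 0.0529 CPM. The annotated exons of NMB and UCN are short, at 1022 and 795 bases. Per kb of exon NMB lay above the median detected gene by 0.61 log2 units (limma, adjusted p = 1.01e-04). UCN, at 5.60 CPM per kb, was not distinguished from it (limma, adjusted p = 0.957). All 34 precursors together summed to between 36.1 and 45.3 CPM in a library, against between 530 and 562 CPM for the 10 granin and processing genes. Neither sum is scaled by exon length, so the gap between them is not one of levels per length. PENK, the proenkephalin gene, had 122, 144 and 63 counts, and 20.1% of its exon bases overlap a gene on the other strand. POMC had 0, 3 and 1 counts and GRP 0, 1 and 1. PENK, POMC and GRP were named after their values were seen.

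**Figure D5:**
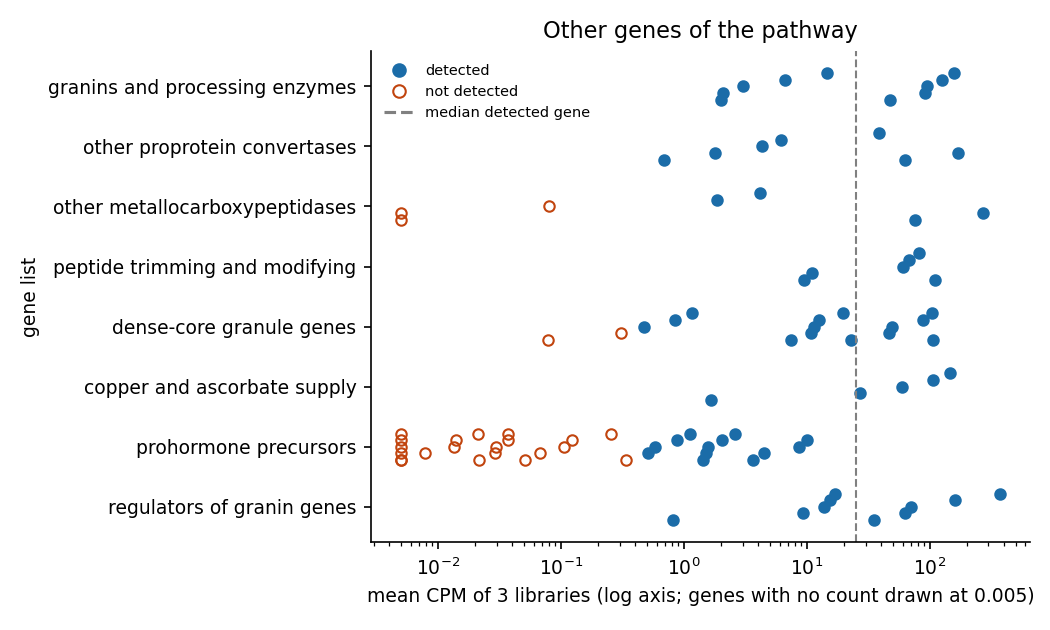
Mean CPM of the 3 libraries (log axis) for each gene of 8 lists, filled where detected and open where not, with genes without a count drawn at 0.005 and a dashed line at the median detected gene (25.2 CPM). None of the 34 prohormone precursors lies right of the line, and 21 of them were not detected. Of the 10 granin and processing genes, all detected, 5 lie right of it, beside 45.9% of all detected genes called above.

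Among 10 factors that act on granin genes, 5 lay above and 5 below the median detected gene. The neurogenic factor gene NEUROD1 (371 ± 38.9 CPM), SP1 (161 ± 6.63 CPM) and CREB1, which encodes a factor that binds the cAMP response element (70.3 ± 13.7 CPM), had the highest CPM, and the immediate early gene EGR1 the lowest at 0.817 ± 0.347 CPM. Per kb of exon CREB1 stood at 7.34, under ATF1 (12.7), which encodes another factor of the CREB family, and RCOR1 (10.2), a corepressor partner of REST; both were named after their values were seen. REST, the repressor of neuronal and granin genes in non-neuronal cells, had 397, 703 and 330 counts, or 15.4 ± 1.48 CPM, and was named after its value was seen. Of 6 neuroendocrine markers 4 lay above and 2 below, with UCHL1 (326 ± 8.07 CPM), ENO2 (233 ± 37.6 CPM) and SYP (207 ± 6.11 CPM) highest and DDC lowest (3.36 ± 0.840 CPM). In bulk RNA, fewer cells that express a gene and less RNA per cell cannot be told apart. Of the markers of other cell types, 5 fibroblast genes summed to between 0.582 and 1.21 CPM and 3 endothelial genes to between 0.805 and 1.54 CPM in a library. The blood cell list summed to between 26.3 and 35.3 CPM, with CD3E at 7.63 ± 2.25 CPM and the largest part from CD68 (22.6 ± 3.76 CPM), a gene that shares 81.7% of its exon bases with another annotated gene on the same strand. CD68 was not distinguished from the median detected gene on CPM (limma, adjusted p = 0.208) and lay above it per kb of exon by 0.89 log2 units (limma, adjusted p = 6.04e-05), while PTPRC, the pan-leukocyte marker, had 6, 10 and 7 counts. Of the lung alveolar and airway genes FOXJ1 stood at 12.05 ± 2.96 CPM, below the median detected gene on CPM and not distinguished from it per kb of exon (limma, adjusted p = 0.0719), and SFTPC, SCGB1A1 and NKX2-1 had no count. Their part in the levels of the members was not tested.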

How the data were processed

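The authors deposited 1 table of raw read counts per gene symbol for the 3 libraries. Total RNA was extracted with TRIzol, per the labels' protocols. STAR 2.6.1b and hg38 appear in the submitters' processing notes without a role; the counting program, annotation, use of strand and filters are not stated in the sources used here.

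The 13 names turned into dates (0.0665% to 0.0736% of counts) were left out. CPM used effective library sizes (totals times TMM factors of 0.994, 0.999 and 1.01, edgeR 4.0.16). log2 CPM had a prior count of 2. Levels were tested in R 4.3.3 with limma 3.58.1 (trend fit): the library's median over 14612 detected genes was subtracted from log2 CPM and the remainder tested against 0, two-sided, with Benjamini-Hochberg adjustment and a threshold of 0.05. With 1 group, edgeR and DESeq2 contrasts could not be made. Spread was tested by chi-square homogeneity, and pairs by a two-sided exact sign-flip test on counts. The limma level test and the homogeneity test were tested on simulated data.

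Exon lengths and positions are from GENCODE 29 on GRCh38; 92.6% of detected genes and all 10 members had a length. Genes named are every member, every pair gene, and the 3 highest and the lowest detected gene of each other pathway list, unless the text says otherwise (1 of them is not reported here); of other cell types, the leading and defining markers are named. The members and lists were chosen with earlier results of these data known. Protein features were not analysed here. Alternatives were other normalizations (DESeq2 1.42.0 size factors, plain totals), filters, a prior count of 0.5, limma-voom, another reference point, lengths, protein-coding genes only, a threshold of 0.01 and leaving out each library.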

Additional observations from a re-analysis of the deposited data

How the results depend on the processing

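Of 446 recomputed values, 404 kept their direction and call, or moved by less than the spread between libraries (1.5 times for a count). CHGA, CHGB, SCG3 and CPE stayed above, and SCG2, VGF and SCG5 below, the reference point under all 12 alternatives of their level, and all 10 members kept their call with plain totals, DESeq2 size factors, limma-voom, a prior count of 0.5 and without each replicate. With any gene of at least 1 count kept, which lowers the median gene, PCSK2 (1.51 log2 units) lay above it and PCSK1, at 0.34, was not distinguished from it (limma, adjusted p = 0.0772), so 6 members were above and 3 below, and the counts below were 2 convertases, 2 convertase partners, 0 trimming enzymes, 5 granule genes, 25 precursors and 1 regulator, with 11 granule genes, 2 precursors and 9 regulators above. Against the upper quartile PAM lay below (-0.49), with 1 convertase, 2 trimming enzymes, 3 granule genes and 2 regulators above and 2 cofactor supply genes below. Per kb of exon PAM was at -0.064, 2 supply genes were below and 1 precursor above; with at least 1 CPM in every library 2 supply genes were below.

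Per kb of exon the mean log2 ratios were 0.50 (CHGA to CHGB), 0.36 (SCG3 to CHGA), -1.19 (SCG5 to PCSK2), 1.29 (CPE to CPD), 5.46 (CPE to PCSK1) and -3.32 (PAM to CPE); with the longest transcript they were 0.26, -0.23, -0.94, 1.16, 5.69 and -2.91, and 5 members kept their rank. Without 1 library, 5 to 7 members passed the homogeneity test and 8 to 10 kept their rank. The adjusted p for spread then ranged from 0.00145 to 0.153 (VGF), 1.08e-06 to 0.879 (SCG3), 0.00077 to 0.275 (SCG5), 3.55e-08 to 0.392 (PCSK1), 1.01e-27 to 0.147 (CPE) and 7.52e-10 to 0.373 (PAM). No paired analysis was possible because the labels form 1 group. The low counts of SCG2, VGF and SCG5 limit their precision.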
